A study of Homo sapiens with 45 samples.

Results

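The comparison set 4 RNA libraries of HNRNPK-depleted HCT116 cells against 4 libraries of control cells, across the whole transcriptome. HCT116 is an established human colon cancer cell line. The members are the 8 libraries labelled siHNRNPK and siNTC5, numbered 1 to 4 in each group, of 45 samples in the series; the other samples are 2 further RNA controls and 35 chromatin immunoprecipitation or input libraries, which are not described here. Both groups were transfected with siRNA at 25 nM using a lipid reagent and collected after 72 hours: siNTC5 is a nontargeting siRNA, and the other siRNA targets HNRNPK. All cells come from 1 line, and replicates 1 and 2 of each group were made into libraries with the TruSeq kit, replicates 3 and 4 with the Ligation kit. The labels do not say whether replicates came from separate cultures, so the p-values measure the spread between these libraries, which may be technical.

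Heterogeneous nuclear ribonucleoprotein K (hnRNP K) binds C-rich stretches of RNA and of single-stranded DNA through KH domains, as its relatives the poly(C)-binding proteins do. It is known to act in pre-mRNA splicing, RNA export, mRNA stability and translation, and to associate with transcription and chromatin factors. In cancer cells it has been linked to growth control and to the p53 response.

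The libraries held 12107280 to 23633851 counts, and the 20 most abundant genes took 7.63% to 9.1% of them. HNRNPK itself fell, from 934.4, 967.4, 822.2 and 813.8 CPM (counts scaled to library size, with TMM factors) in controls 1 to 4 to 250.3, 222.6, 157.0 and 164.2 CPM in siRNA libraries 1 to 4, which is 22.4% of the control mean (two-sided exact permutation p = 0.0286, the smallest that 4 against 4 allows). Summed colon epithelial markers were 2821 to 3250 CPM in controls and 4554 to 5615 CPM in siRNA libraries, although VIL1 and LGALS4 stayed under 1 CPM throughout. Most of the higher sum came from KRT8 and KRT18, the latter at 651.0 CPM in controls and 1729 CPM after siRNA on average. EPCAM, CDH1 and ELF3 were higher too. CDX2 was level (12.1 and 12 CPM) and KRT19 was lower after siRNA (805.6 and 332.6 CPM), so the markers did not share 1 direction. Markers of other cell types were in part at low level: under 1 CPM in all 8 libraries were 9 of 10 fibroblast, 7 of 8 endothelial, 8 of 10 leukocyte and 4 of 8 neural and glial genes. Exceptions were SYT1 (106 CPM in controls and 132 CPM after siRNA on average), MBP (57.5 and 57.3 CPM), COL1A1 (60.1 and 97.5 CPM) and CD68 (21.3 and 23.3 CPM). Summed fibroblast markers were 44.6 to 73.22 CPM in controls and 75.51 to 122.7 CPM after siRNA, and neural and glial ones 142.7 to 181.9 and 173.9 to 213.5 CPM; their part in the results was not tested. Control 2 stood apart from control 1, with a chi-square per degree of freedom of 8.04 against 2.23 to 2.47 for the other pairs of libraries of the same kit and group. Because these are bulk libraries, fewer cells expressing a gene and less of its RNA per cell cannot be told apart. CPM are shares of a library, so a change in total RNA per cell is not seen.

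Of 28278 gene names, 13933 had enough counts to be tested. A gene was called when its adjusted p in edgeR's quasi-likelihood test (Benjamini-Hochberg, kit in the model) was under 0.05; 71.5% of tested genes were called: 35.5% of tested genes were higher and 36.1% lower after HNRNPK siRNA. A stricter call also asked for a 2-fold difference, which 7.47% of tested genes met as higher and 8.28% as lower. The CPM of the 2 groups did not overlap for 56.5% of tested genes, 28.5% with siRNA libraries higher and 28% lower. The middle 50% of genes lay between log2 fold changes of -0.43 and 0.38, with a median of -0.00. The 61 pathway lists described below hold 1514 distinct tested genes, of which 1158 (76.5%) were called and 216 (14.3%) at 2-fold or more, against 71.5% and 15.8% of all tested genes. The lists differed from each other in direction. In every list or family, a gene near the count limit could pass the filter through its higher group alone. "Rose" and "fell" are used below only of called genes, values after the sign are log2 fold changes of HNRNPK siRNA over siNTC5.

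**Figure D1:**
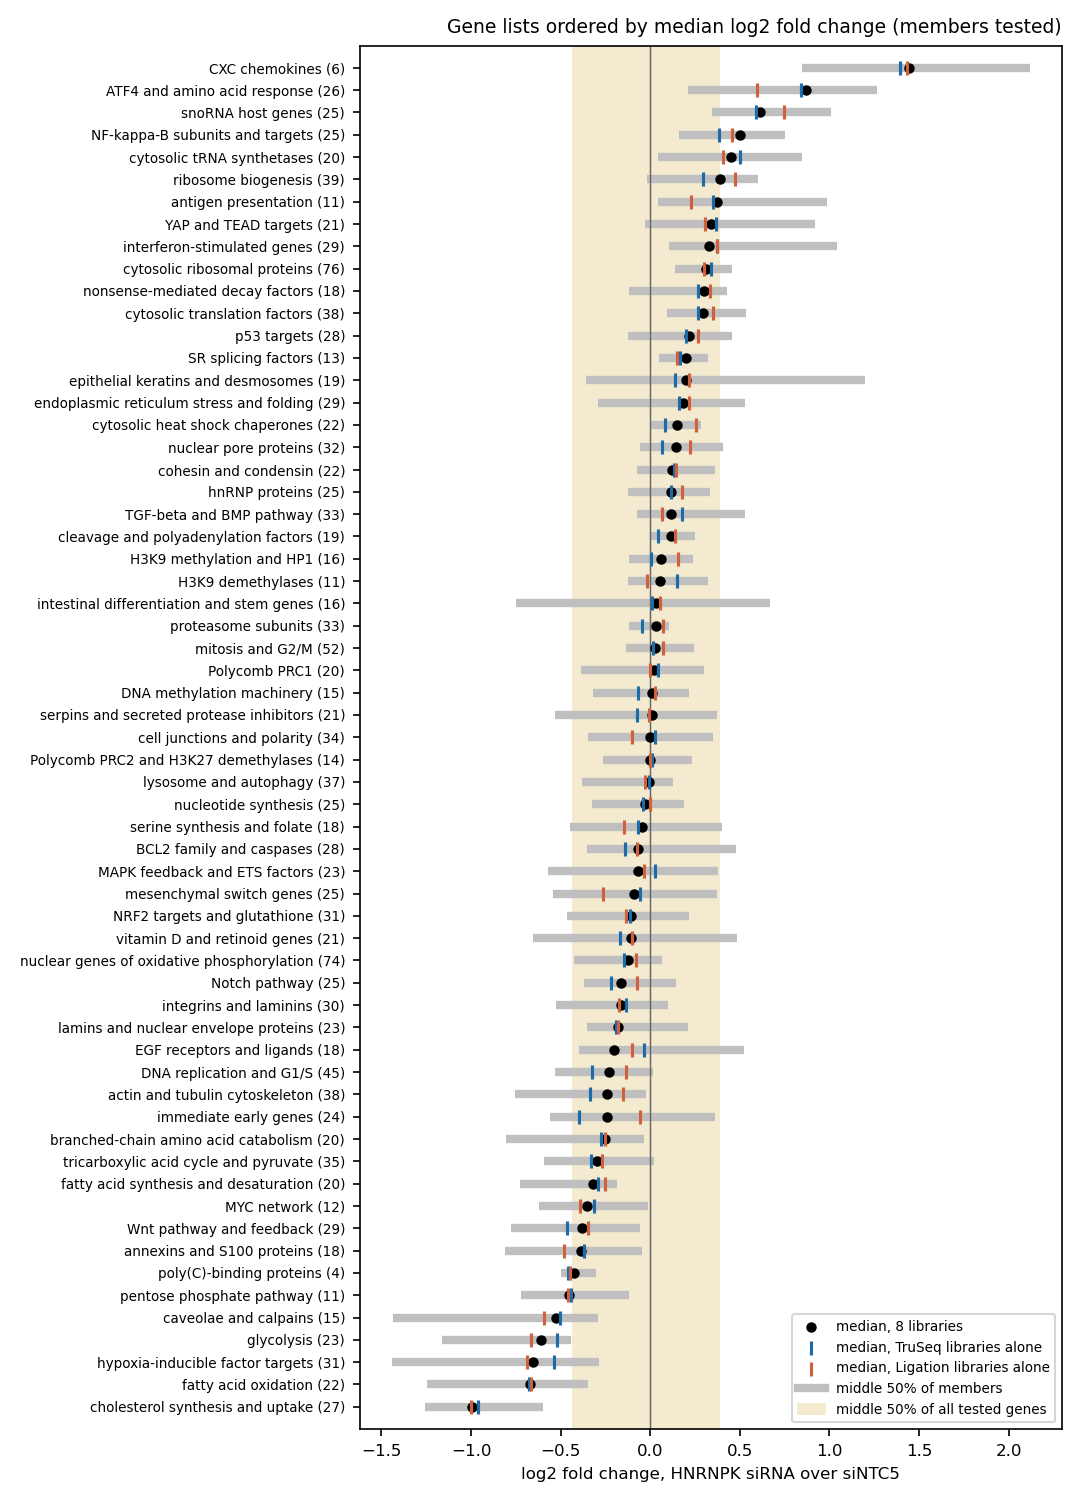
Median log2 fold change of each pathway list (black points; the number of tested members in parentheses), with the middle 50% of its members as grey bars and the medians from TruSeq or Ligation libraries alone as blue or orange ticks; the shaded band is the middle 50% of all 13933 tested genes. Cholesterol synthesis lay lowest at -0.99; the CXC chemokines lay highest at 1.44, from the 6 of 16 members that passed the count filter.

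Genes of cholesterol synthesis and uptake fell as a group. This pathway builds sterol from acetyl-CoA, and its genes are switched on by the SREBP transcription factors when membrane sterol is low. Of 27 tested members 25 fell, none rose, and 13 fell at least 2-fold; the median was -0.99. SC5D (-0.06) and SCAP (-0.02), the latter the sterol sensor that carries SREBPs to the Golgi, were not called. SREBF2, which encodes the SREBP that drives sterol genes, was among the genes that fell.

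The promoter window of SREBF2, taken from RefSeq (GRCh38.p14, chr22:41832947-41833005, plus strand), is shown because it was the only one of 20 cholesterol-gene windows to hold the sterol regulatory element core. Only 20 of the 27 tested members had a window to search. A window spans 250 bases before to 50 after a RefSeq gene start; the stretch around the match is printed with the motif in capitals.
SREBF2: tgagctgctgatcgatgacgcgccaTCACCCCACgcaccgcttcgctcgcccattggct
The motif searched was TCACNCCAC on both strands, and 1.04% of the 10620 windows of tested genes held it. CCAAT, the box bound by the NF-Y partner of SREBPs, was found on either strand in 15 of the 20 windows (75%) and in 36.4% of all. A match describes the letters and not a bound site.

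SREBF2 stood at 426.1, 384.9, 444.7 and 449.3 CPM in controls and at 113.3, 98.93, 91.8 and 106.3 CPM in siRNA libraries, a difference of -2.05 ± 0.06 (SE; edgeR adjusted p = 7.506e-15). The highest siRNA library lay far under the lowest control.

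Falls ran along the synthesis route. Early enzymes of the mevalonate branch fell by different amounts: HMGCS1 -0.62, MVK -1.14, PMVK -1.10 and MVD -1.07. FDPS (-1.23) and FDFT1 (-1.12) make farnesyl diphosphate and squalene. SQLE, the next enzyme and a known control point, fell only by 0.20, and its groups overlapped. LSS fell by 1.90, although its level of 15.1 CPM in controls is low for such a gene and its counts may be incomplete where annotated genes overlap. HSD17B7, which acts later on the sterol ring, fell by 1.26.

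The regulators and carriers moved with the enzymes. INSIG1, which holds SREBPs in the endoplasmic reticulum and is itself an SREBP target, was at 184.8, 166.1, 178.5 and 184.9 CPM in controls against 65.12, 59.57, 62.8 and 58.76 CPM (-1.53 ± 0.05). STARD4, a cytosolic sterol carrier, fell by 1.49, and SREBF1, the SREBP of fatty acid genes, by 1.25. The INSIG1 groups lay far apart.

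Fatty acid genes fell on both the synthesis and the oxidation side. For synthesis and desaturation, 16 of 20 tested members fell and 2 rose (median -0.32). ACSS2, which makes acetyl-CoA from acetate, fell by 1.92 and FADS1, a desaturase, by 1.23. FASN, the fatty acid synthase, had 1322, 878.3, 1423 and 1417 CPM in controls and 422.5, 383.0, 794.7 and 742.2 CPM in siRNA libraries (-1.17 ± 0.11). Control 2 was low for FASN, and the difference without it was -1.23. The difference was -1.44 in TruSeq and -0.89 in Ligation libraries. SCD, the stearoyl-CoA desaturase, was steadier, falling from 2891 to 3011 CPM down to 1391 to 1464 CPM. FADS2 (0.33) and ELOVL2 (1.04, under 2 CPM) rose.

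For mitochondrial and peroxisomal fatty acid oxidation, 20 of 22 tested members fell and 2 rose, with a median of -0.67. Entry into mitochondria (CPT1A -0.86, CPT1C -1.39, CPT2 -1.28), the chain-shortening enzymes (ACADS -1.36, HADH -1.85) and the enoyl-CoA isomerases (ECI1 -2.05, ECI2 -1.13) all fell. HADH was at 35.57, 35.58, 32.84 and 34.43 CPM in controls and at 10.81, 9.061, 9.188 and 9.147 CPM after siRNA, and the groups lay far apart. ETFB, a subunit of the flavoprotein that passes these electrons on, fell by 1.79, whereas its partner ETFA fell by only 0.12. HADHB (0.19) and PPARGC1B (0.41) rose.

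**Figure D2:**
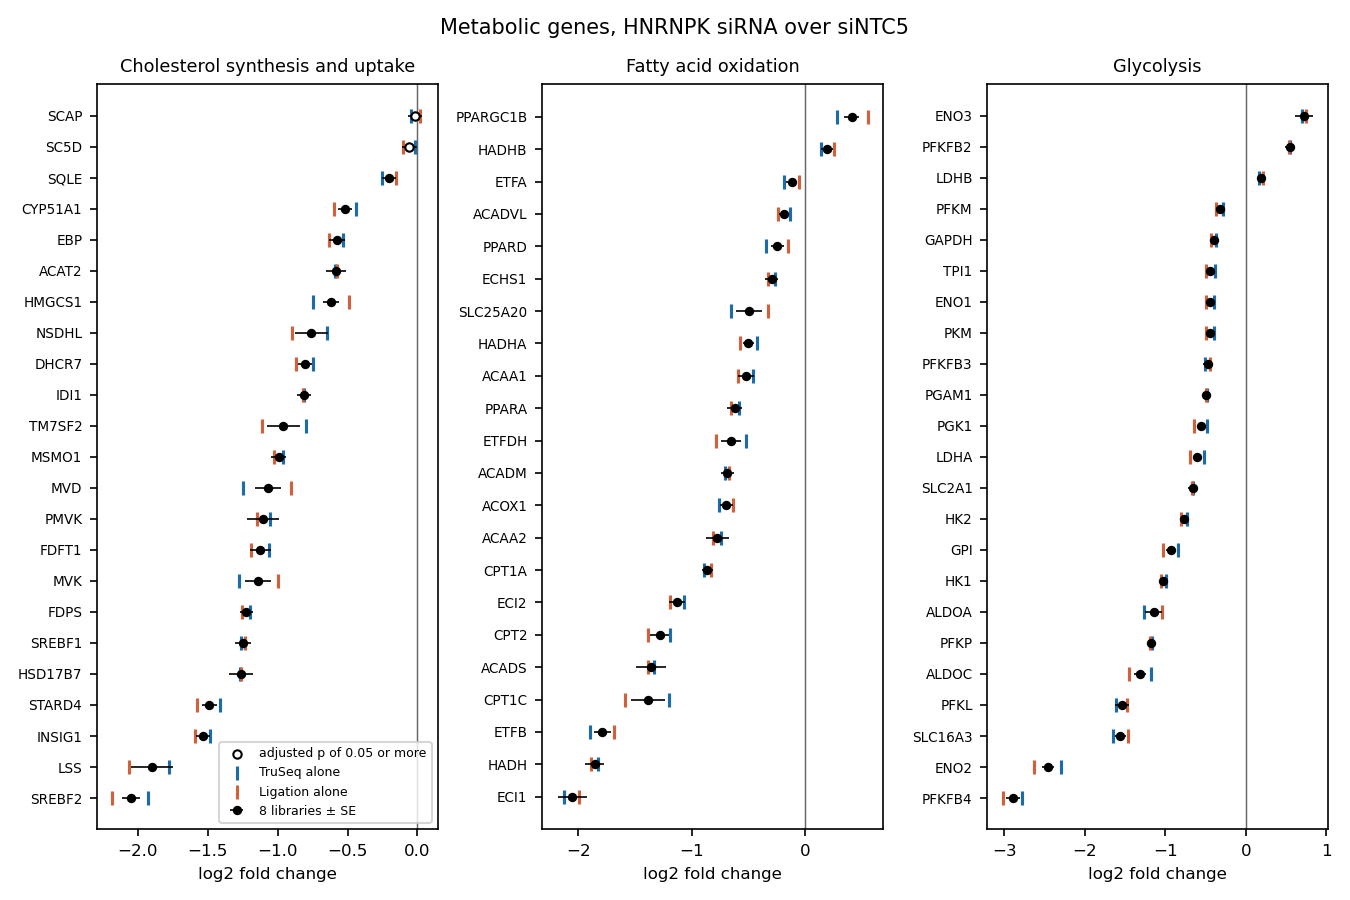
Log2 fold change ± SE of tested members of 3 metabolic lists (all but 4 genes of the cholesterol list; black points, 8 libraries; open points have an adjusted p of 0.05 or more), with the TruSeq-only and Ligation-only values as blue and orange ticks. SREBF2 (-2.05), ECI1 (-2.05) and PFKFB4 (-2.89) lie lowest in their panels, and the ticks of both kits fall on the same side of 0 for every called member drawn.

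Genes of glycolysis and targets of the hypoxia-inducible factor also fell for the most part. Of 23 tested glycolytic genes 20 fell and 3 rose (median -0.61), and 8 fell at least 2-fold. Falls covered glucose entry (SLC2A1 -0.66, HK1 -1.02, HK2 -0.77), the phosphofructokinases (PFKL -1.54, PFKP -1.18, PFKM -0.32), the lower pathway (GAPDH -0.40, PGK1 -0.56, ENO1 -0.44, PKM -0.44) and lactate export (SLC16A3 -1.56). GAPDH is often used as a constant reference, and it fell from 6649 to 5035 CPM on average.

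ENO2, the neuronal-type enolase, was at 367.1, 318.1, 390.6 and 381.7 CPM in controls and at 76.2, 62.32, 56.23 and 68.98 CPM in siRNA libraries (-2.46 ± 0.08), so every siRNA library lay far under every control. Its sister gene ENO3 rose (0.72, 12.3 to 20.2 CPM). LDHA fell by 0.61 while LDHB, which encodes the other lactate dehydrogenase subunit, rose by 0.19. PFKFB4, which sets the level of the phosphofructokinase activator, fell by 2.89. Its relative PFKFB2 rose by 0.54.

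Of 31 tested targets and parts of the hypoxia-inducible factor (HIF) pathway 25 fell and 2 rose (median -0.65), and 10 fell at least 2-fold; 4 of these genes are also glycolytic list members. NDRG1, a HIF-induced stress gene, was at 743.7, 467.2, 813.2 and 785.4 CPM in controls and at 166.3, 148.9, 182.8 and 198.7 CPM after siRNA (-2.0 ± 0.10). Control 2 was the lowest control yet stayed above every siRNA library. ANGPTL4 (-2.13), BNIP3 (-1.66), EGLN3 (-1.72) and CA9 (-1.58, under 6 CPM) fell too. VEGFA, a classical target, was not called (-0.08, 90.1 against 85.5 CPM), and neither were KDM3A or LOX. HIF1A fell by 0.27, EPAS1, the HIF-2 subunit, by 0.65, and VHL, which marks HIF for destruction, rose by 0.45. The bare HIF core ACGTG, on both strands, was in 12 of 25 windows (48%) and in 26.2% of all windows.

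Mitochondrial pathways were less even. In the tricarboxylic acid cycle and pyruvate list 22 of 35 tested genes fell and 4 rose (median -0.30), with PC, pyruvate carboxylase, lowest: 27.81, 22.63, 33.11 and 37.33 CPM fell to 8.108, 7.427, 7.84 and 8.406 CPM. PDP1, the phosphatase that activates pyruvate dehydrogenase, rose by 0.65, and the kinases that inhibit it, PDK1, PDK2 and PDK3, fell by 0.69, 0.74 and 1.10. CS, citrate synthase, was not called (-0.02). Nuclear genes of oxidative phosphorylation split into 35 lower, 11 higher and 28 not called of 74 (median -0.13). Complex V had 8 of 15 lower and 0 higher, and complex I had 16 of 35 lower and 6 higher.

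ATP5F1D, a subunit of the ATP synthase stalk, fell most: 41.27, 27.02, 56.76 and 48.0 CPM in controls against 5.932, 6.982, 10.03 and 8.653 CPM (-2.44; -2.57 without control 2, its lowest control). ATP5F1A, another subunit of the ATP synthase, was not called (-0.01). Genes for mitochondrial ribosomal proteins, 75 tested, moved both ways with 22 higher and 26 lower. The 13 protein genes of the mitochondrial genome were not analysed here.

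In the pentose phosphate list 8 of 11 fell and 2 rose. H6PD, the enzyme of the endoplasmic reticulum branch, fell by 3.44 and PGLS, the lactonase, by 2.40. In branched-chain amino acid breakdown 13 of 20 fell and 1 rose. PCCB, a subunit of propionyl-CoA carboxylase, fell by 0.96, while its partner PCCA was not called (-0.08). Nucleotide synthesis had no common direction, with 10 of 25 lower and 7 higher: ADSS2 fell by 1.28 while GART (0.91) and PFAS (0.79), which act in purine synthesis, rose.

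The amino acid response rose. When amino acids run short or the endoplasmic reticulum is stressed, phosphorylation of eIF2 favours translation of ATF4, a transcription factor that switches on amino acid transporters, asparagine synthetase and tRNA synthetases. Of 26 tested genes in this group 19 rose and 2 fell, with 12 rising at least 2-fold and a median of 0.87. ATF4 mRNA itself was at 382.4, 388.4, 498.1 and 471.0 CPM in controls and at 913.5, 876.5, 907.3 and 914.0 CPM after siRNA (1.06 ± 0.05).

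Windows that held the C/EBP-ATF response element are shown for CHAC1 and ASNS, of the amino acid response list, and for AARS1, a tRNA synthetase. The letters searched were TGATGNAA on both strands, and capitals mark the match. Positions are GRCh38.p14 from RefSeq: CHAC1 at chr15:40953237-40953294 (plus strand), ASNS at chr7:97872444-97872501 (minus strand) and AARS1 at chr16:70289661-70289718 (minus strand).
CHAC1: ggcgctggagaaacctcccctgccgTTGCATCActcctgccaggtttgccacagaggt
ASNS: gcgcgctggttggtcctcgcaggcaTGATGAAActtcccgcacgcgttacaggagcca
AARS1: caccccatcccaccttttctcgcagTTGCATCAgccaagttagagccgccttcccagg
The element was in 5 of 22 windows of the amino acid response list (22.7%), in 6 of 16 of the tRNA synthetases (37.5%) and in 1.69% of all windows of tested genes.

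ATF3 and DDIT3, transcription factors downstream of ATF4, rose most clearly. ATF3 was at 18.14, 22.38, 30.18 and 25.01 CPM in controls and at 105.7, 109.2, 134.6 and 134.2 CPM after siRNA (2.34 ± 0.07). DDIT3, also called CHOP, went from 13.52, 14.28, 26.18 and 22.93 CPM to 59.59, 64.62, 72.24 and 70.95 CPM (1.84 ± 0.10). In both genes the lowest siRNA library was above the highest control.

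Transporters followed. SLC38A2, a glutamine and alanine transporter, rose from a range of 1005 to 1206 CPM to 2183 to 2443 CPM (1.06). SLC7A11, the cystine importer, rose from 70.85, 74.17, 126.8 and 125.5 CPM to 304.2, 330.6, 279.0 and 281.2 CPM (1.64 ± 0.12), and its partner SLC3A2 by 0.84. SLC7A1, an arginine transporter, was not called (-0.02). DDIT4, an inhibitor of mTORC1 that is also a HIF target, fell by 0.77, and SLC1A4 fell by 0.50; both had overlapping groups.

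The size of this response differed between kits. Among controls, Ligation libraries were above TruSeq libraries for 24 of the 26 genes (median log2 difference 0.32, against 0.01 over all tested genes), and among siRNA libraries for 18 of 26 (0.14). ASNS, a gene of low level, is an example: controls were 2.194 and 2.255 CPM in TruSeq and 6.262 and 5.309 CPM in Ligation. Its difference was 2.13 in TruSeq and 0.96 in Ligation libraries. An edgeR test of the gap between these 2 differences did not call ASNS (adjusted p = 0.1005). Whether the cultures or the kits differed cannot be told apart. CHAC1, a glutathione-degrading enzyme, differed most: 3.676, 3.55, 37.91 and 30.71 CPM in controls and 40.74, 41.67, 52.35 and 53.89 CPM after siRNA, with differences of 3.52 in TruSeq and 0.63 in Ligation libraries. The median of the list was 0.84 in TruSeq and 0.59 in Ligation libraries.

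Serine synthesis and folate genes moved both ways. The serine enzymes PHGDH (1.43) and PSAT1 (1.44) and the mitochondrial folate enzyme MTHFD2 (1.12) rose at least 2-fold, PSPH rose by 0.38, and MTR (-0.80), MTHFD1 (-0.43) and TYMS (-0.42), which act in the cytosol or in thymidylate synthesis, fell. PHGDH was at 72.45, 71.37, 111.6 and 106.7 CPM in controls and at 229.8, 228.0, 237.9 and 260.1 CPM after siRNA. Of other mitochondrial enzymes, GLDC, which cleaves glycine, fell by 1.07 and SHMT2 was not called (0.04). In all, 7 of 18 rose and 9 fell.

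Cytosolic tRNA synthetases rose in 14 of 20 cases and fell in 3 (median 0.45). MARS1, the methionyl enzyme, went from 258.0, 304.1, 288.1 and 291.0 CPM to 725.9, 700.2, 625.1 and 670.2 CPM (1.25 ± 0.05), and AARS1 rose by 1.17. GARS1 (0.95), TARS1 (0.83) and EPRS1 (0.77) followed. Both subunits of the phenylalanyl enzyme differed from these: FARSA fell by 0.37 and FARSB was not called (0.00). VARS1 rose by 2.08 at under 1 CPM on average in each group, a low count for a gene that every cell uses, so its value is uncertain.

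The response of the endoplasmic reticulum was mixed. Of 29 tested stress and folding genes 15 rose and 10 fell (median 0.18). HSPA5, the chaperone BiP, was at 1077, 1089, 1265 and 1279 CPM in controls and at 2608, 2649, 3750 and 3725 CPM after siRNA (1.42 ± 0.05). HERPUD1, which serves degradation of misfolded proteins, rose by 1.57, EIF2AK3, the eIF2 kinase PERK, by 1.00, and DNAJB11 by 0.91. Against these, CRELD2 fell from 34.86, 30.07, 35.51 and 32.89 CPM to 10.94, 12.11, 13.23 and 15.0 CPM (-1.38 ± 0.09), and CREB3L2 (-0.91), MANF (-0.57) and P4HB (-0.49) fell. XBP1 rose by 0.50 and its activator ERN1 was not called (0.15).

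Genes with the endoplasmic reticulum stress element moved in opposite directions, which is why 3 windows are printed, with the element in capitals. The letters searched were CCAAT, then 9 bases of any kind, then CCACG, on both strands. Of the windows of the list, 7 of 27 held it (25.9%) against 0.151% of all. The stretches lie at chr9:125241366-125241434 (HSPA5, minus strand), chr22:28800578-28800646 (XBP1, minus strand) and chr22:49918529-49918597 (CRELD2, plus strand) in GRCh38.p14, from RefSeq.
HSPA5: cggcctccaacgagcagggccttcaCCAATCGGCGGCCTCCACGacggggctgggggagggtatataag
XBP1: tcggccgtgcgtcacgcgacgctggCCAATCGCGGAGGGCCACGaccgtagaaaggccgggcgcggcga
CRELD2: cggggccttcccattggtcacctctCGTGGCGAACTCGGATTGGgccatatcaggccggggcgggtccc
Of the 7 genes, HSPA5, HSP90B1, CALR, CANX and XBP1 rose, and CRELD2 and ERO1B fell.

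**Figure D3:**
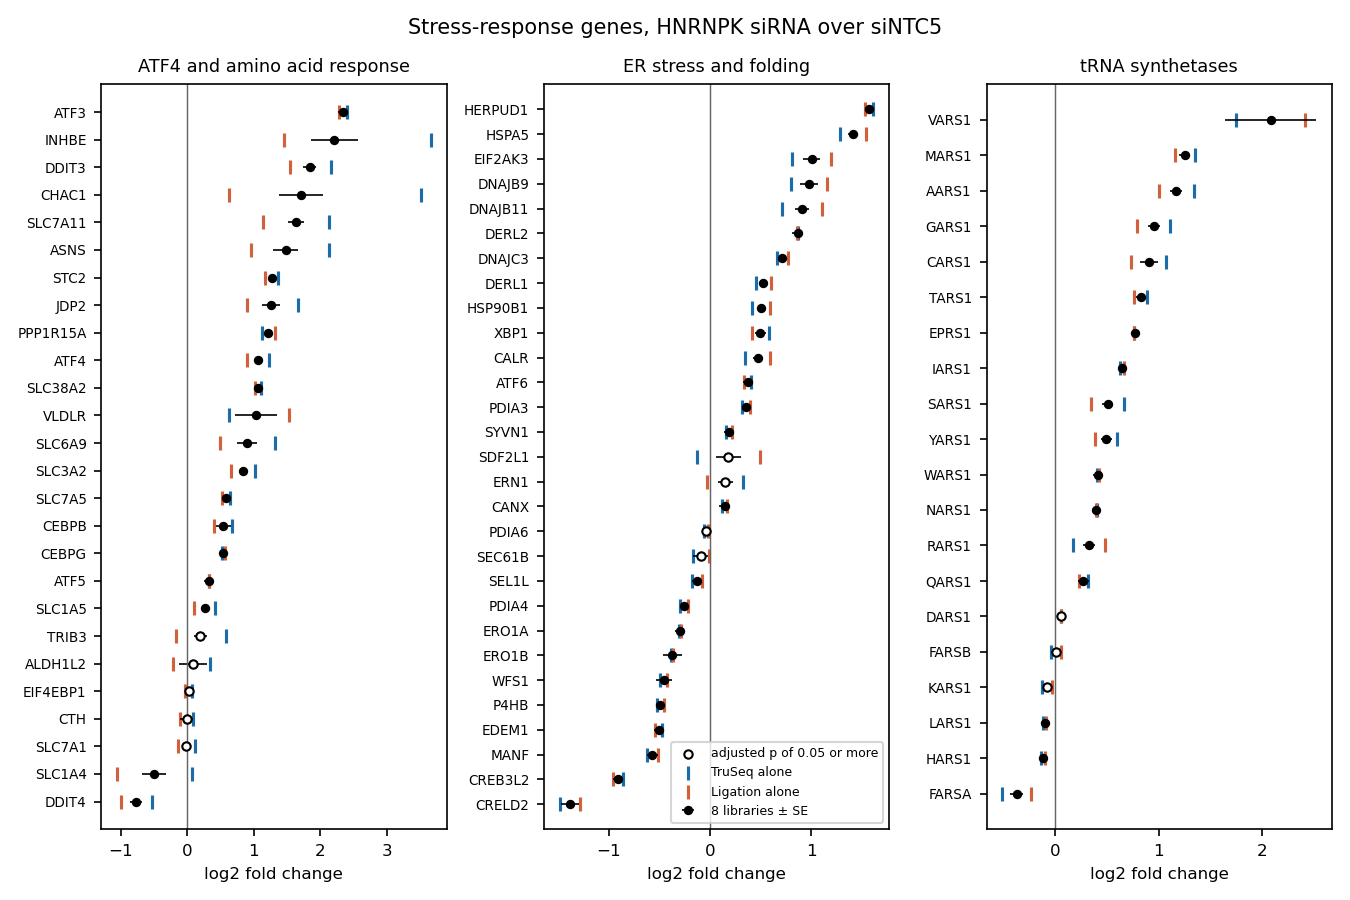
Log2 fold change ± SE of every tested member of 3 stress-related lists, drawn as in the plot of metabolic genes. ATF3 reached 2.34 and HERPUD1 1.57, CRELD2 stood at -1.38, and the TruSeq ticks lie to the right of the Ligation ticks for many amino acid response genes, such as ASNS (2.13 and 0.96).

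Other stress lists are given by their counts. Cytosolic heat shock chaperones had 11 of 22 higher and 4 lower (median 0.15), with no member past 2-fold; HSP90AA1 was not called (0.03) and DNAJB1 was not either (0.00). Targets of NRF2, the oxidative stress factor, had 9 of 31 higher and 14 lower: TXNRD1 rose by 0.64, while HMOX1 fell from 32.78 to 36.67 CPM down to 21.66 to 25.31 CPM (-0.58), and NQO1 fell by 0.24. Among lysosome and autophagy genes 10 of 37 rose and 13 fell. MAP1LC3B, a core autophagosome protein, rose by 1.22 and the lysosomal enzymes NAGLU (-1.75) and GAA (-1.47) fell.

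Genes of the translation machinery rose by small steps. Of 76 tested cytosolic ribosomal protein genes 57 rose and 1, RPS28, fell, and none reached 2-fold (median 0.31). The calls covered both ribosomal subunits, with 34 of 47 large-subunit and 23 of 29 small-subunit genes higher. RPLP0, also used as a reference gene, rose by 0.21. Of the 200 most abundant genes of any kind 128 rose and 41 fell. How far level goes with the counts of the translation lists was not tested. Ribosomal protein genes have many processed copies, and reads that match several places may have been counted in part.

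Translation factors rose in 28 of 38 cases and fell in 3 (median 0.30). EIF2S3, the gamma subunit of eIF2, was at 444.8, 462.0, 461.3 and 458.8 CPM in controls and at 900.1, 931.2, 972.0 and 936.8 CPM after siRNA (1.03 ± 0.04), and the groups lay far apart. All but 1 of the 11 tested EIF3 subunits rose; EIF3F was not called (-0.10). EIF4B (0.57) and EIF5 (0.87) rose and EIF4G1 was not called (0.01). Ribosome biogenesis had 25 of 39 genes higher and 7 lower (median 0.39): RRP12 (1.18), NOP58 (0.91), GNL3 (0.88) and NPM1 (0.72) rose, and PPAN fell by 1.37.

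Host genes of small nucleolar RNAs rose in 20 of 25 cases and none fell, 7 of them at least 2-fold (median 0.61). SNHG5 was at 34.68, 35.5, 32.98 and 32.02 CPM in controls and at 102.3, 113.3, 91.21 and 94.6 CPM after siRNA (1.57 ± 0.06). ZFAS1 (1.43), SNHG6 (1.29), SNHG1 (1.09) and GAS5 (0.95) rose as well. These transcripts are known for short open reading frames and for decay during translation. Of 145 tested snoRNA genes 94 rose and 3 fell; snoRNAs lie within host genes, and reads of host and guest cannot be told apart in a library of this kind.

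The closest relatives of hnRNP K fell, 3 of 4 tested. Among the poly(C)-binding proteins PCBP1 fell from 245.7 to 264.9 CPM down to 175.7 to 209.6 CPM (-0.37), PCBP2 fell by 0.48 and PCBP4 fell by 0.54, and PCBP3 was not called. Of 25 other hnRNP genes 13 rose and 7 fell, none by 2-fold. PTBP2 rose most, by 0.83, with PTBP1, whose product represses PTBP2 splicing, not called (0.02). Among SR splicing factors 8 of 13 rose, TRA2B by 0.41.

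Nonsense-mediated decay factors rose in 12 of 18 cases and fell in 5 (median 0.30). The paralogues UPF3A and UPF3B moved apart: UPF3A fell from a mean of 37.4 to 18.7 CPM (-0.99) and UPF3B rose from 30 to 53.7 CPM (0.84). UPF1, the core helicase, rose by 0.42, and SMG6, the endonuclease of the pathway, fell by 0.77. PABPC1, the cytosolic poly(A)-binding protein, rose by 0.52.

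Cell cycle genes changed without a common direction. Replication and G1/S genes fell more often than they rose, 26 against 9 of 45 (median -0.23). MCM5, a subunit of the replicative helicase, was at 233.7, 235.6, 200.9 and 200.5 CPM in controls and at 97.49, 91.43, 80.59 and 93.62 CPM after siRNA (-1.26 ± 0.05). Its 5 partner subunits did not follow alike: MCM2 fell by 0.64, MCM4 by 0.30 and MCM7 by 0.29, MCM6 was not called, and MCM3 rose by 0.21. When kit was left out of the model 21 G1/S genes were called instead of 35.

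Among 52 mitotic genes 21 rose and 13 fell, and 18 were not called, CCNB1 (0.06), PLK1 (-0.01) and TOP2A (-0.01) among them. MKI67 fell by 0.27, and CDC25B, the phosphatase that triggers mitotic entry, by 1.16. CCND1, cyclin D1, was at 632.4, 640.4, 607.4 and 596.2 CPM in controls and at 364.4, 365.7, 388.7 and 360.7 CPM after siRNA (-0.74 ± 0.04), while its kinase CDK6 rose by 1.32. MYC rose slightly (0.13) with overlapping groups, and the call was lost without siRNA replicate 3 (adjusted p = 0.0606 in edgeR) and in the other 3 of 4 settings that lost it.

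Targets of p53 split: 15 of 28 rose and 7 fell (median 0.22). CDKN1A, the p21 inhibitor of cyclin-dependent kinases, fell from 344.5, 335.1, 402.6 and 404.5 CPM to 238.0, 228.2, 299.6 and 302.4 CPM (-0.48 ± 0.04). MDM2, which marks p53 for destruction, rose by 0.29. PLK2 rose most (1.35), and the repair gene XPC (-1.92) and TP53I3 (-2.01) fell most. Within the BCL2 and caspase list the initiators PMAIP1 (0.70), BMF (1.73) and HRK (1.07) and the inhibitor BIRC3 (2.33) rose, while APAF1 (-0.67), CASP9 (-0.63) and CASP6 (-0.71) fell; 10 of 28 rose and 13 fell.

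Growth factor signalling genes moved both ways, with the receptor EGFR among those that fell; of 18 tested receptors, ligands and sheddases 7 rose and 7 fell. EGFR was at 173.7, 166.8, 179.0 and 192.9 CPM in controls and at 51.94, 41.89, 44.76 and 44.01 CPM after siRNA (-1.96 ± 0.06). ERBB2 (-0.37) and ERBB3 (-0.41) fell less. Ligands moved the other way in part: EREG rose by 0.70, HBEGF by 0.58 and AREG by 0.36, with TGFA falling by 0.61. ADAM17, the protease that sheds these ligands, rose by 0.58 and its partner RHBDF2 by 0.79.

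Of 24 tested immediate early genes 7 rose and 11 fell. EGR1 fell from 273.6, 292.5, 196.2 and 197.4 CPM to 87.07, 84.45, 61.28 and 65.02 CPM (-1.68 ± 0.05). Both groups were higher in TruSeq than in Ligation libraries, and the fall was -1.72 in TruSeq and -1.65 in Ligation. FOS, another immediate early gene, differed by kit: controls were 164.5 and 178.7 CPM in TruSeq and 44.17 and 47.56 CPM in Ligation, and siRNA libraries 52.34, 51.32, 20.32 and 20.11 CPM. The FOS groups overlapped across kits and not within them (-1.51). JUN (1.07) and, at low level, NR4A3 (1.74) rose, and the JUN difference was larger in Ligation libraries by 1.17. The ERK phosphatases DUSP4 (-1.76) and DUSP6 (-1.22), which are induced by the pathway they switch off, fell, while DUSP5 (0.77) and DUSP10 (1.11) rose. Over the feedback list 9 of 23 rose and 9 fell.

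Targets of YAP and TEAD, the Hippo pathway's transcription factors, rose in 12 of 21 cases and fell in 5 (median 0.34). CCN2 was at 4.388, 7.141, 1.799 and 3.065 CPM in controls and at 23.14, 29.49, 20.65 and 19.53 CPM after siRNA (2.48 ± 0.17), and CCN1 rose by 1.64. AMOTL2 (1.18) and LATS2 (0.92), which restrain YAP, and AJUBA (1.27) rose. YAP1 rose by 0.51, and WWTR1, which encodes its close relative, fell by 1.01. NT5E, the ecto-nucleotidase CD73, went against the list, falling from 124.1 to 153.5 CPM down to 27.85 to 32.23 CPM (-2.23 ± 0.06).

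In the Wnt list 17 of 29 fell and 5 rose (median -0.38). The receptors FZD4 (-1.78), FZD1 (-0.66), FZD2 (-0.77) and LRP5 (-0.83) fell, and KREMEN1, which removes LRP receptors from the surface, fell by 2.80. The feedback genes AXIN2 and RNF43 rose. AXIN2 was at 18.02, 19.92, 15.79 and 18.61 CPM in controls and at 38.49, 41.96, 47.71 and 45.57 CPM after siRNA (1.25 ± 0.09), and RNF43, a ligase that removes Frizzled receptors, was at 140.9, 147.6, 134.0 and 135.1 CPM against 327.5, 319.7, 319.7 and 339.3 CPM (1.23 ± 0.04). NKD1 (-0.58), NOTUM (-0.77) and ZNRF3 (-0.32), also Wnt feedback genes, fell. CTNNB1, beta-catenin, rose by 0.33.

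TGF-beta and BMP genes moved both ways. SMAD7, the inhibitor induced by TGF-beta, was at 2.609, 2.756, 1.532 and 2.135 CPM in controls and at 13.45, 15.15, 11.3 and 11.7 CPM after siRNA (2.50 ± 0.14). SKIL (1.80), TGFBR2 (1.02), SMAD3 (0.73) and, at low level, PMEPA1 (2.63) and SMAD6 (1.08), an inhibitor of BMP signalling, rose. ID1 and ID2, induced by BMP, fell by 1.99 and 0.58, with ID1 at -2.12 without its low control 2. In all, 17 of 33 tested genes rose and 6 fell. The list has 40 genes, and those near the count limit could pass through the siRNA libraries alone. Notch genes fell in 12 of 25 cases and rose in 7, with NUMBL, a Notch antagonist, at -1.34. Among vitamin D and retinoid genes 10 of 21 fell and 8 rose: CYP24A1, which inactivates vitamin D, went from 260.0, 248.8, 305.4 and 301.9 CPM to 55.83, 46.05, 44.42 and 49.03 CPM (-2.50 ± 0.07), and the retinoid receptors RXRA (-1.33) and RARG (-1.07) fell.

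NF-kappa-B genes rose. This family of factors is held in the cytoplasm by I-kappa-B proteins and, once freed, induces its own inhibitors, survival genes and chemokines. Of 25 tested members 17 rose and 2 fell (median 0.50), among them the subunits NFKB1 (0.57), NFKB2 (0.64), REL (0.50) and RELB (0.50). RELA, the main activating subunit, rose by 0.17 with overlapping groups. The list has 31 genes, and those near the count limit could pass through the siRNA libraries alone.

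Windows with the NF-kappa-B core are shown for 2 feedback inhibitors and 2 chemokines that rose; the letters searched were GGANNTTCC on both strands, and capitals mark the match. They lie at chr14:35404797-35404855 (NFKBIA, minus strand), chr6:137867167-137867225 (TNFAIP3, plus strand), chr4:73740453-73740511 (CXCL8, plus strand) and chr4:73869290-73869348 (CXCL1, plus strand) in GRCh38.p14, from RefSeq.
NFKBIA: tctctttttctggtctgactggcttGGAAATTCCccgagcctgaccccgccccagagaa
TNFAIP3: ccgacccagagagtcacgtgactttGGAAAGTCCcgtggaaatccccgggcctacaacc
CXCL8: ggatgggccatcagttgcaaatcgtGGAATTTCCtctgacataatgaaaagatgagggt
CXCL1: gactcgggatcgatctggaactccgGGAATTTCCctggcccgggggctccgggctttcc
The core was in 7 of 22 windows of the NF-kappa-B list (31.8%), 4 of 5 of the chemokine list (80%) and 4.45% of all windows of tested genes. Only members that passed the count filter were searched, so the 5 chemokine windows do not stand for all 16 listed genes. CXCL1, CXCL2 and CXCL3 are near copies, so their matches are not separate cases.

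NFKBIA, the I-kappa-B alpha inhibitor, was at 27.27, 26.56, 27.71 and 24.36 CPM in controls and at 82.26, 91.28, 93.99 and 92.46 CPM after siRNA (1.76 ± 0.06). TNFAIP3, the A20 inhibitor, rose by 1.49 and BIRC3 by 2.33, from 12.28 to 16.9 CPM up to 55.17 to 97.87 CPM. TNIP1, a partner of A20, fell instead (-1.27), and SOD2, a common target, was not called (-0.01). The spread within each group of NFKBIA was small beside the difference.

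Of 16 listed CXC chemokine and receptor genes 6 passed the count filter, and these 6 were called higher. Genes near the count limit could pass through the siRNA libraries alone, so neither that count nor the list median of 1.44 describes the whole list. CXCL16 (0.13) was the smallest rise, with overlapping groups. CXCL8, which attracts neutrophils, was at 2.075, 1.963, 1.133 and 1.149 CPM in controls and at 30.26, 37.58, 31.7 and 33.38 CPM after siRNA (4.37 ± 0.14). CXCL1 (1.81), CXCL2 (1.07) and CXCL3 (2.22), which are near copies, rose from under 1 CPM. With a filter of 50 mean counts 2 genes of the list were called.

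Of 38 listed interferon-stimulated genes 29 passed the count filter, and of these 17 rose and 2 fell (median 0.33). Genes near the count limit could pass through the siRNA libraries alone, so neither the count nor the median describes the whole list. DDX60, a helicase of antiviral sensing, was at 16.54, 17.58, 13.86 and 15.16 CPM in controls and at 77.65, 79.55, 79.91 and 73.67 CPM after siRNA (2.29 ± 0.07). IFI44 (2.08), OAS1 (1.77) and IFITM1 (1.58) rose from about 1 CPM or less. ISG15 (0.04), IFIT1 (0.16) and MX1 (-0.76), standard markers of an interferon response, were not called, and OAS3 fell by 0.91. ERAP1, which trims peptides for antigen presentation, rose by 1.5.

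**Figure D4:**
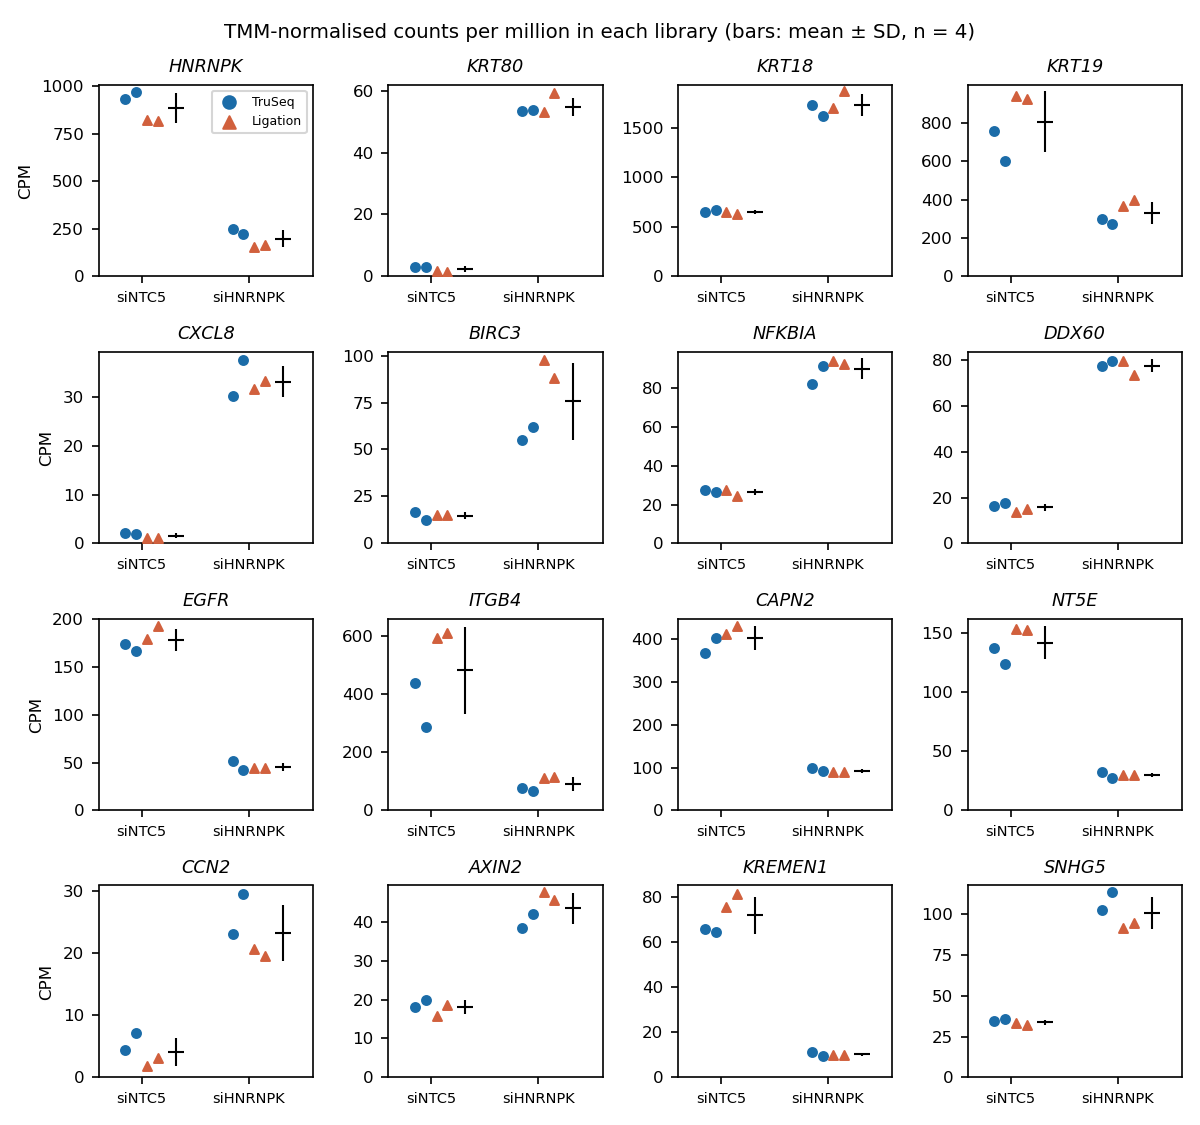
TMM-normalised CPM in each of the 8 libraries for 16 genes (blue circles TruSeq, orange triangles Ligation; bars give the mean ± SD, n = 4; every axis starts at 0). The control and siRNA libraries do not overlap in any of the 16 panels, nor did they for 56.5% of all tested genes. Many of the genes drawn were named by a rule that asks for no overlap. EGFR lay at 166.8 to 192.9 CPM in controls and at 41.89 to 51.94 CPM after siRNA.

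Surface and skeleton genes changed in ways that divided close relatives. Simple-epithelial keratins are intermediate filament proteins that pair type II with type I members. KRT18 was at 647.3, 674.3, 651.9 and 630.6 CPM in controls and at 1733, 1614, 1695 and 1874 CPM after siRNA (1.41 ± 0.05), and its partner KRT8 rose by 0.98. KRT19 fell, from 758.2, 601.0, 940.6 and 922.6 CPM to 297.7, 272.6, 364.4 and 395.8 CPM (-1.27 ± 0.06). KRT7 (2.41) rose, as did KRT80 (4.50) and, from under 1 CPM, KRT81 (2.97). Of 19 tested keratin and desmosome genes 10 rose and 7 fell, PPL (-1.43) and DSP (-0.57) among the latter. The list has 30 genes, and those near the count limit could pass through the siRNA libraries alone.

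Adhesion genes and genes of the mesenchymal switch moved both ways. CDH1, E-cadherin, rose from 94.93 to 106.2 CPM up to 149.4 to 171.6 CPM (0.66 ± 0.05) and EPCAM rose by 0.67. VIM, vimentin, fell by 1.67 from about 3 CPM. LOXL2 (-2.54) and S100A4 (-0.59) fell, and SPARC (2.35) rose from under 1 CPM. Of 25 tested mesenchymal genes 6 rose and 11 fell. That list has 34 genes, and those near the count limit could pass through the siRNA libraries alone. Junction genes were 12 higher and 14 lower of 34, with OCLN (1.14) and CLDN15 (1.55) rising.

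Integrins and laminins fell in 15 of 30 cases and rose in 6. ITGB4, the beta subunit of hemidesmosomes, was at 438.6, 288.9, 593.3 and 609.9 CPM in controls and at 75.74, 68.11, 112.5 and 113.6 CPM after siRNA (-2.37 ± 0.09, and -2.49 without control 2). ITGA6 (-0.54), its partner, and ITGA3 (-0.99) fell. ITGB5 (0.91), ITGB8 (1.17) and LAMB3 (1.22) rose, and ITGB1, the most shared beta subunit, was not called (-0.01).

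Caveolae and calpains fell in 12 of 15 cases, 6 at least 2-fold, and CAV1 alone rose (median -0.52). Caveolae are membrane pits built from caveolins and cavins. CAV2 was at 232.9, 199.4, 176.3 and 166.3 CPM in controls and at 56.16, 51.1, 45.27 and 45.9 CPM after siRNA (-1.96 ± 0.06), while CAV1, its partner and the essential coat protein, went from 298.2 to 365.9 CPM up to 415.0 to 480.5 CPM (0.44 ± 0.04). CAVIN1 (-1.15) and EHD2 (-1.21), which stabilise the coat, fell. Calpains are calcium-dependent proteases: CAPN2 fell by 2.12 and the shared small subunit CAPNS1 by 1.66.

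Actin, myosin and tubulin genes fell in 22 of 38 cases and rose in 6 (median -0.24). MYL9, a myosin light chain, was at 32.31, 31.86, 28.51 and 32.29 CPM in controls and at 4.878, 6.685, 4.13 and 5.356 CPM after siRNA (-2.57 ± 0.11). TUBB3 (-1.54) and TUBA1A (-1.22), tubulins known best from neurons, fell most among tubulins; tubulin genes are near copies, so reads may be shared between them. ACTB rose by 0.20 while ACTG1 fell by 0.21, both with overlapping groups. Annexins and S100 proteins fell in 12 of 18 cases, but ANXA2 (0.60) and ANXA1 (0.36) rose. Serpins and secreted inhibitors were 7 higher and 9 lower of 21, with SERPINB6 (-1.52) and CST3 (-1.51) falling and PI15 (3.92) and SLPI (3.19) rising from about 1 CPM or less, and intestinal differentiation and stem genes were 7 higher and 7 lower of 16, with DPP4 (-1.65) and EPHB2 (-1.25) falling.

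Among genes of the nuclear envelope 14 of 23 fell and 7 rose (median -0.18), none by 2-fold. LMNA fell by 0.80, LMNB2 by 0.68 and SUN2 by 0.94, and ZMPSTE24, the protease that matures prelamin A, rose by 0.84. LMNB1 fell by 0.33. Nuclear pore genes rose in 17 of 32 cases and fell in 7; NUP153 (0.66), NUP98 (0.57) and NUP214 (0.66) rose, and NUP210 fell by 1.43.

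Chromatin regulators moved in both directions, and most by less than 2-fold. H3K9 methyltransferases and HP1 genes had 7 of 16 higher and 4 lower, with SETDB1 (-0.03) and SUV39H1 (0.04) not called and EHMT1 falling by 0.41. The demethylase genes KDM4A and KDM4B, which act on the same mark, moved apart: KDM4A rose from 95 to 174 CPM on average (0.88) and KDM4B fell by 2.02 (-2.18 without control 2). PRC2 genes had 4 of 14 higher and 5 lower, with EZH2, SUZ12 and EED not called. HELLS, a remodeller needed for DNA methylation, fell by 1.00, and DNMT3B and UHRF1 fell by 0.62 and 0.44, while DNMT1 was not called (-0.02). Of 14 cohesin and loading genes 9 rose and 3 fell, SMC3 by 0.54 and SMC1A by -0.69, though the encoded proteins form a pair.

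Families named by symbol gave a wider view. Of 376 tested ZNF zinc finger genes 203 rose and 54 fell (median 0.29), and of 35 DEAD-box helicases 25 rose and 3 fell (0.37). HOX genes rose in 15 of 27 cases and fell in 3. Solute carriers fell more often, 102 against 59 of 233, as did TMEM membrane proteins, 83 against 45 of 172. RAB GTPases were even, 21 and 21 of 51. Among noncoding RNAs, 60 of 162 tested LINC genes rose (37%) and 37 fell (22.8%). Of 306 tested antisense RNAs 104 rose (34%) and 76 fell (24.8%). Over all tested genes 35.5% were higher and 36.1% lower, so the shares that rose were near that of all genes. Counts were given for 1737 LINC and 1213 antisense names, and genes near the count limit could pass through their higher group alone. Whether counting used strand is not given in the sources used here, so an antisense RNA and its partner cannot be told apart.

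Calls of 2-fold or more also varied with level and with promoter composition. In the lowest quintile of genes by average level 24.3% were at least 2-fold higher and 11.4% at least 2-fold lower, against 1.61% and 3.19% in the highest quintile. A gene of low level could pass the count filter through its higher group alone, so the share in the lowest quintile is in part set by the filter. By GC content of the start window, the median log2 fold change went from 0.17 in the quintile with the lowest GC (median 51%) through 0.08, -0.00 and -0.10 to -0.23 in the quintile with the highest (77%). It was -0.23 in TruSeq, -0.21 in Ligation and -0.23 without control 2 in that last quintile. Libraries of 1 group also differed along GC content. From the lowest to the highest quintile the median log2 difference of control 2 from control 1 went from 0.03 to -0.05. That of siRNA 2 from siRNA 1 went from 0.01 to -0.02, both in the direction of the group trend. For control 4 from control 3 it went from 0.005 to -0.007, and for siRNA 4 from siRNA 3 from -0.01 to 0.01. In both quintiles these gaps between libraries of 1 group were smaller than the difference between groups. Whether the GC content of the libraries had a part in the trend was not tested.

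**Figure D5:**
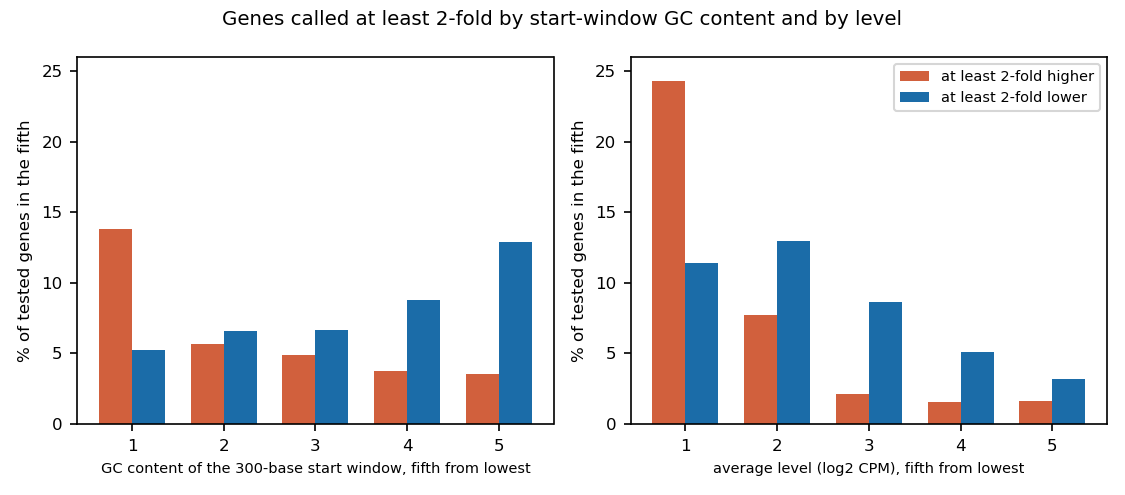
Percentage of tested genes called at least 2-fold higher (orange) or lower (blue), by quintiles of start-window GC content (left, 2124 genes each) and of average log2 CPM (right). The share of genes lower rose from 5.23% to 12.9% across the GC quintiles while that of genes higher fell from 13.8% to 3.53%.

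Most genes called at 2-fold in 1 kit were called in the same direction in the other. Of 1030 genes at least 2-fold higher in TruSeq libraries, 925 (89.8%) were called higher in Ligation libraries, where 33.8% of all genes were, and 0 were called lower. Of 1064 at least 2-fold lower in TruSeq, 1017 (95.6%) were called lower in Ligation (34.6% of all genes) and 1 was called higher. In reverse, 904 (87.9%) of 1029 genes higher in Ligation were called higher in TruSeq (28.5% of all genes) and 2 lower, and 1110 (87.2%) of 1273 lower in Ligation were called lower in TruSeq (30% of all genes) and 0 higher. The labels do not say whether the kits were used on the same RNA.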

How the data were processed

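RNA of 8 HCT116 libraries was measured by stranded mRNA sequencing, per the labels. The authors deposited raw counts per gene; STAR 2.7.1a, featureCounts, Subread 2.0.6 and hg38 are named in the submitters' processing notes, while the annotation and the strand setting are not given in the sources used here. Libraries held 12107280 to 23633851 counts, and precision is set by 4 libraries per group.

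Counts were filtered with filterByExpr, scaled by TMM and fitted with edgeR 4.0.16 (quasi-likelihood test, kit and siRNA as terms, 5 residual degrees of freedom) in R 4.3.3, with Benjamini-Hochberg adjustment over 13933 genes. SE is the log2 fold change divided by the square root of F. DESeq2 1.42.0 was an alternative. Others were upper-quartile scaling, other count filters, no kit term, each kit alone, a replicate block and each library left out. Tested on simulated data over 13793 genes of this comparison, the fit recovered 95 of 98 genes changed by 1 log2 unit and 98 of 99 changed by 2, and called 8 of 13596 unchanged ones. The simulation changed few genes, evenly in direction, with the same dispersion for all genes and no library standing apart. In the data 71.5% of genes were called, so the simulated rate of false calls need not hold here.

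Same-numbered libraries deviated together (r from 0.1004 to 0.4246), and they share a kit; with kit removed r was 0.0582 and 0.009. The numbers come from the labels.

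The members and lists were chosen with earlier results of these data known. Named by rule were HNRNPK, 20 fixed genes, the largest rise and fall of each list (adjusted p under 0.05, at least 2-fold, average log2 CPM of at least 3, no overlap), the 5 largest rises and falls among the 200 most abundant genes, and list members called at 2-fold; the rest were picked with their values in view. Promoter windows came from RefSeq GRCh38.p14, and 13760 tested genes matched RefSeq. Genes that overlap or have near copies may be undercounted. Some members of the lists are counted but not reported here by name.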

Additional observations from a re-analysis of the deposited data

Results flagged for a closer look

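In 7 of 178 groups of 4 libraries for the named genes, 1 library stood apart from the other 3 by Dixon's criterion, and 3 of the 7 were control replicate 2. Chance alone meets this criterion in about 1 in 20 groups when all 4 values come from 1 normal distribution. Each group here holds libraries of 2 kits, so that rate need not hold. LMNB1 and EZH2 were highest in control replicate 2, at 191 and 122 CPM, and BCKDHA was lowest there, at 27.8 CPM. MYL9 was lowest in control replicate 3, at 28.5 CPM. Among siRNA libraries PPAN (7.5 CPM) and KRT80 (59.1 CPM) were highest in replicate 4, and SPRED3 was lowest in replicate 2, at 10.5 CPM.

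The response differed between kits by an interaction test in edgeR for 18 genes, 3 of them named. The Ligation difference minus the TruSeq difference, on the log2 scale, was -0.63 for PSAT1 (adjusted p = 0.0003747), -0.98 for SLC7A11 (adjusted p = 2.198e-06) and 1.17 for JUN (adjusted p = 0.003902).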

How the results depend on the processing

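The number of genes called ranged from 8186 to 10865 over the alternatives tried, and from 9612 to 9997 with 1 library left out. Calls of at least 2-fold ranged from 2239 to 2386 with 1 library left out. Requiring a mean count of 50 gave 1253 such genes, 435 higher and 818 lower, a share higher of 34.7% against 47.4%; without a filter there were 3116, with 55.1% higher. With the replicate block 9872 genes were called and 2202 at 2-fold or more, and neither total moved by over 1.5 times.

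Across the lists and settings, 19 counts of called genes moved by over 1.5 times and 1426 did not; for counts at 2-fold 76 moved and 1369 did not, and 182 list medians moved by more than their spread over siRNA libraries while 1263 did not. The G1/S median was -0.32 in TruSeq and -0.13 in Ligation libraries, and that of CXC chemokines was 2.28 at a mean count of 50 against 1.44. A mean count of 50 left calls for 2 CXC chemokines, 72 antisense RNAs, 2 replication histones, 42 LINC genes, 11 mesenchymal genes and 5 ribosomal protein pseudogenes; no filter gave 9 replication histones and 182 LINC genes. Without the kit term 21 G1/S genes were called, and in TruSeq libraries alone 12 Notch genes and 5 ribosomal protein pseudogenes. The 1 call among clustered protocadherins became 0 with DESeq2, a mean count of 50, no kit term or Ligation alone, 8 without a filter, and 0 to 1 with a library left out. EZH2, not called at 0.02, stood at -0.0168 without a filter and ranged from -0.0417 (without control replicate 1) to 0.0927 (without control replicate 2) with a library left out; without siRNA replicate 4 it was -0.0133. Fewer tested genes follow from the stricter filter; for the other changes the cause was not tested.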
